A study of Homo sapiens with 6 samples.

Results

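The urea cycle and arginine enzymes are 9 genes, CPS1, ASS1, ASL, ARG1, ARG2, OTC, NAGS, OAT and GLUL, taken by symbol from a table of 60612 gene rows, each symbol matching 1 row. Poly(A) RNA was sequenced from SNU-368, labelled as a hepatocellular carcinoma line, in 6 libraries: 3 of cells with a short hairpin RNA against TFAM (shTFAM) and 3 of cells with a control hairpin (shCtrl). TFAM packages mitochondrial DNA and is needed for its transcription, and the series title ties its loss to nuclear actin and to spread of liver cancer. The labels give neither the hairpin sequences, the time after their delivery, nor whether the cells were clones, and they do not say whether the 3 libraries of a group came from separate cultures. P-values therefore measure the spread between these libraries, which may be technical.

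The urea cycle turns ammonia into urea in periportal hepatocytes. Its opening steps lie in mitochondria. NAGS makes N-acetylglutamate, the obligate activator of CPS1. CPS1 condenses ammonia with bicarbonate into carbamoyl phosphate, and OTC joins carbamoyl phosphate to ornithine to give citrulline. In the cytosol ASS1 and ASL convert citrulline to arginine, and ARG1, the liver arginase, splits arginine into urea and ornithine. ARG2 is the mitochondrial arginase of tissues other than liver. OAT moves ornithine towards glutamate and proline, and GLUL, glutamine synthetase, captures ammonia in the perivenous hepatocytes that lie downstream.

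The shTFAM libraries held 46263488 to 61058282 counts and the shCtrl libraries 43286024 to 50910536. Mitochondrial DNA supplied 7.91 to 10.7% of the counts in shTFAM and 10.1 to 14.2% in shCtrl. TFAM itself had 63.7, 65.0 and 56.7 CPM (counts per 1e6, scaled with TMM factors) in shTFAM, against 82.2, 76.2 and 89.6 CPM in shCtrl (log2 fold change -0.42, edgeR adjusted p 0.0377). The call was lost on leaving out any 1 of the 6 libraries (edgeR adjusted p 0.0676 to 0.0948), on leaving out shCtrl 3 with shTFAM 3 (0.0818) and with no level filter (0.0644). The label of a liver cancer line was set against 19 hepatocyte markers: none reached 1 FPKM (fragments per kilobase of transcript, scaled to library size) in every library of a group, and 12, among them albumin (ALB), APOA1, TTR and the fibrinogen genes, had a count of 0 in all 6 libraries. Their summed level was 0.118 to 0.320 FPKM in shTFAM and 0.424 to 0.495 FPKM in shCtrl. Of 6 hepatoblast and fetal liver markers, AFP, GPC3 and DLK1 were at 0, and H19 was the only one to reach 1 FPKM. The summed levels of other cells' markers were 163 to 244 FPKM in shTFAM and 88.6 to 152 FPKM in shCtrl for 7 cholangiocyte genes, most of it keratin KRT7. For 8 fibroblast and stellate cell genes they were 44.6 to 47.9 FPKM in shTFAM and 30.2 to 44.0 FPKM in shCtrl. For 4 endothelial genes they were 0.389 to 0.643 FPKM in shTFAM and 0.363 to 0.520 FPKM in shCtrl, and for 5 blood cell genes 12.2 to 17.1 FPKM in shTFAM and 4.13 to 6.42 FPKM in shCtrl. The part of these markers in the results below was not tested. Of the 5 blood cell genes, PTPRC, CD3E and HBB were at 0 in every library. Nearly all of their sum was CD68, with 12.2, 12.5 and 17.1 FPKM in shTFAM and 4.13, 6.00 and 6.35 FPKM in shCtrl.

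Of the 9 enzymes, 4 were expressed in shTFAM and 5 in shCtrl, counting a gene as expressed at 1 FPKM or more in all 3 libraries of a group. CPS1, ASS1, ASL and OAT reached that level in both groups and ARG2 in shCtrl. The difference of 1 gene rests on a single library, shTFAM 3, where ARG2 had 0.976 FPKM, and the counts were equal at limits of 0.5 FPKM (6 in each group) and 5 FPKM (3 in each group). NAGS and GLUL lay below 1 FPKM, ARG1 was near 0 and OTC had a count of 0 in every library. The steps of the cycle thus had abundant mRNA for CPS1 and ASS1, less for ASL, little for the arginases and none detected for OTC. The plot of levels in each library shows them in the order of the reactions.

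**Figure D1:**
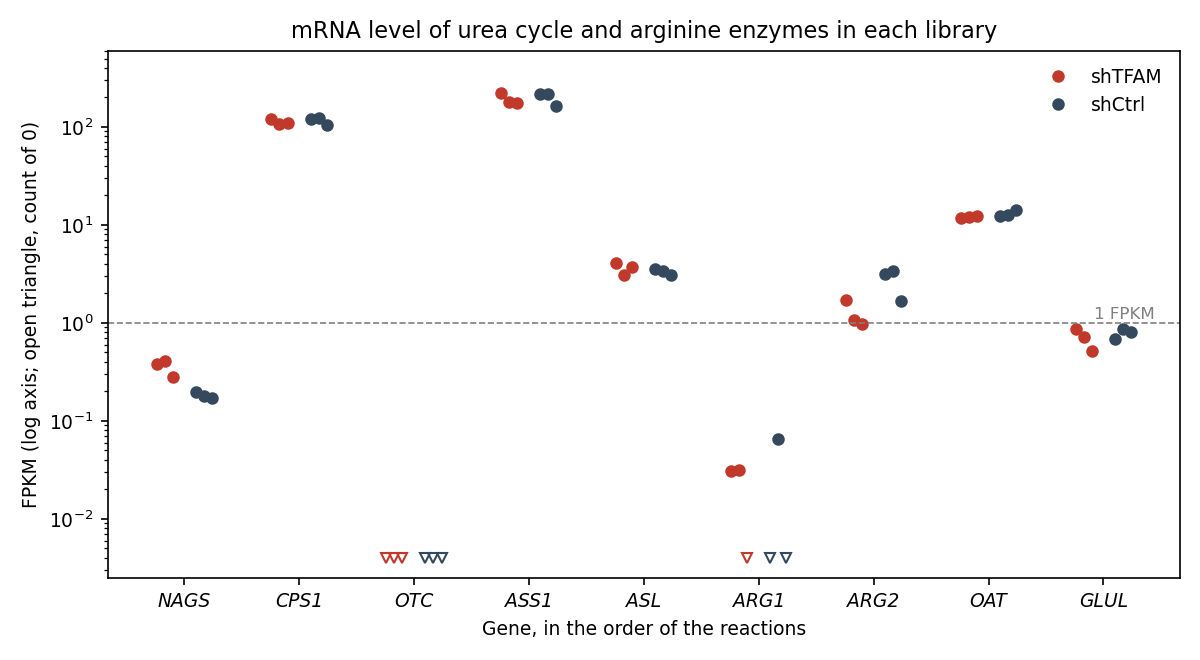
Level of each enzyme in every library, in FPKM on a log axis, with shTFAM libraries in red left of shCtrl libraries in dark blue; open triangles mark a count of 0 and the dashed line marks 1 FPKM. ASS1 and CPS1 sit above 100 FPKM in all 6 libraries, while OTC is at a count of 0 in all of them.

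The promoter windows of 5 enzymes are given because they set consecutive or duplicate reactions with very different mRNA levels side by side. CPS1 and OTC catalyse adjacent mitochondrial steps, ASS1 is the most abundant member, and ARG1 and ARG2 catalyse the same reaction. Each window of 300 bases runs from 250 bases before to 50 bases after a RefSeq start site (GRCh38.p14), the one nearest to the start of the gene's row, and capitals mark CG dinucleotides. All 9 enzymes had a window, with 3 for CPS1, 2 for ASS1 and 2 for GLUL, of which only the nearest is described. Which start site these cells used was not tested. The windows are at chr2:210477435-210477734, plus strand for CPS1; chrX:38352354-38352653, plus strand for OTC; chr9:130444711-130445010, plus strand for ASS1; chr6:131572976-131573275, plus strand for ARG1; and chr14:67619670-67619969, plus strand for ARG2.
CPS1: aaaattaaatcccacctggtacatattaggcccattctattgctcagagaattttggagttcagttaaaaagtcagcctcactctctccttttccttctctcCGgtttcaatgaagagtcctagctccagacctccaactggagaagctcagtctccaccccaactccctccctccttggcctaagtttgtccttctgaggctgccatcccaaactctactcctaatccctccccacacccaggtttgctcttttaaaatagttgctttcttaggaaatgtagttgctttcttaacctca
OTC: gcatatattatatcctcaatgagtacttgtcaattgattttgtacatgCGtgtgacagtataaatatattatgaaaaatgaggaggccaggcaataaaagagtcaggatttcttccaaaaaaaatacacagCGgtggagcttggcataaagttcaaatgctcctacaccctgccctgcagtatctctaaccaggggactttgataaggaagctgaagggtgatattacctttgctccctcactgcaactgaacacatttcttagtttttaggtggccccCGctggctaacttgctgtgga
ASS1: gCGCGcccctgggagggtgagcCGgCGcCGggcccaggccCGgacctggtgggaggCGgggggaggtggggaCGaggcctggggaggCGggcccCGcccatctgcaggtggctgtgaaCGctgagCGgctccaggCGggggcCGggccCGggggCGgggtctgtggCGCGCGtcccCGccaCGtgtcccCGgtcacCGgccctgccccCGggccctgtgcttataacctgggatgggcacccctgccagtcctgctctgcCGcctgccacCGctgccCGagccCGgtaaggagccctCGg
ARG1: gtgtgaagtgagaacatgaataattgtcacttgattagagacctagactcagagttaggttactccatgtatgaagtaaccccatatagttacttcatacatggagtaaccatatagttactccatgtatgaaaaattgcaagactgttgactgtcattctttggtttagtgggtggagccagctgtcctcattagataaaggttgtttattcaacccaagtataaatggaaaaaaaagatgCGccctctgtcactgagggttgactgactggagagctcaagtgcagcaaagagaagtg
ARG2: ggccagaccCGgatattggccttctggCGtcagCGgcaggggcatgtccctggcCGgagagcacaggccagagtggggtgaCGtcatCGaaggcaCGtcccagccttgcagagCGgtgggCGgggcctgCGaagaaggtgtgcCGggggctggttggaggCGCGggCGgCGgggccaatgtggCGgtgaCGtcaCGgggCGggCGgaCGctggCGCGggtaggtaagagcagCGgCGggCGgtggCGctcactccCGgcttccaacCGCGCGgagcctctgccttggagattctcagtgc
The ARG1 window lies 102394 bases from the start of the table's ARG1 row, which extends further upstream.

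Most of the windows were either CG-poor or CG-rich, and that of NAGS lay between. CPS1 and ARG1 each held 1 CG and OTC held 3, whereas ASS1 held 29, ASL 30, ARG2 31, OAT 33, GLUL 29 and NAGS 15. At most 1 CG was found in 11% of all 35116 RefSeq windows, at most 3 in 24.5% and at most 15 in 52.5%. The letters TATAAA, searched on both strands as for each motif here, occurred in the windows of OTC and ARG1 and in 11.5% of all windows. The GC box GGGCGG was in 6 of the 9 windows, those of ASS1, ASL, ARG2, NAGS, OAT and GLUL, against 45.0% of all. The E-box CACGTG occurred in the ASS1 window (7.26% of all), and the cyclic AMP response element TGACGTCA in the ARG2 window (1.85% of all). CCAAT was in the windows of ASL, ARG2, OAT and GLUL (34.6% of all).

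CPS1 paired a CG-poor promoter with a high level. Over 3397 genes of the table whose RefSeq windows held at most 4 CG, a limit chosen after the values were seen, 175 (5.15%) had a mean of at least 1 FPKM. Only 3 of these 3397 genes reached 100 FPKM, and CPS1 was one of them, with the interferon-induced genes BST2 and IFITM1. Among 11701 genes with 15 or more CG in a window, 7772 (66.4%) reached 1 FPKM and 153 (1.31%) reached 100 FPKM. Of the genes at 1 FPKM or more, 1.71% of those with at most 4 CG reached 100 FPKM, a share that rests on 3 genes. It was 2.77% for those with 5 to 14 CG (17 of 614) and 1.97% for those with 15 or more. This is a description of levels across genes, and methylation of these windows was not measured.

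**Figure D2:**
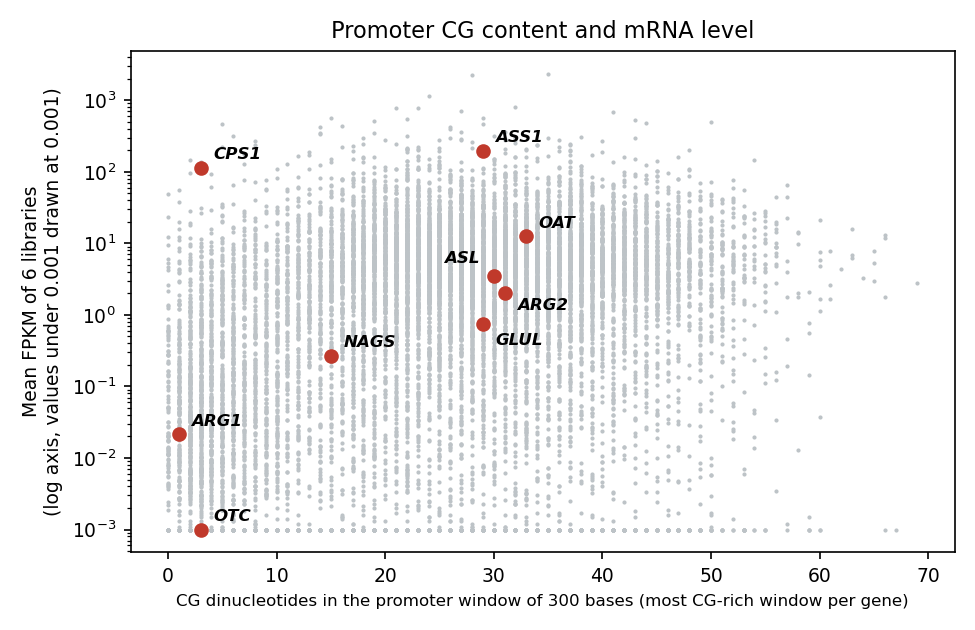
Mean FPKM of the 6 libraries (log axis) against the number of CG dinucleotides in the most CG-rich promoter window of each gene; grey points are genes of the table and red points the 9 enzymes. CPS1, with 3 CG in that window, stands at 114 FPKM above nearly all CG-poor genes, while OTC, also with 3, is at the bottom of the plot.

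No enzyme of the 9 passed the test between groups. With edgeR's quasi-likelihood test on counts, 0 of the 6 that passed the level filter, a mean of at least 0.5 FPKM over the 6 libraries, had an adjusted p of at most 0.05, where 17.9% of all 14708 tested rows did. At an unadjusted p under 0.05 the count was 1, ARG2, against 34.8% of all tested rows. DESeq2 called 1, again ARG2, against 26.8% of its rows, and limma on log2(FPKM + 1) called 0, against 17.8%. The tested enzymes had a median log2 fold change of -0.01, beside -0.02 over all tested rows. None of the 6 had groups that did not overlap in CPM, against 42.2% of all tested rows (22.1% higher and 20.1% lower in shTFAM). ARG1, OTC and NAGS fell below the filter.

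**Figure D3:**
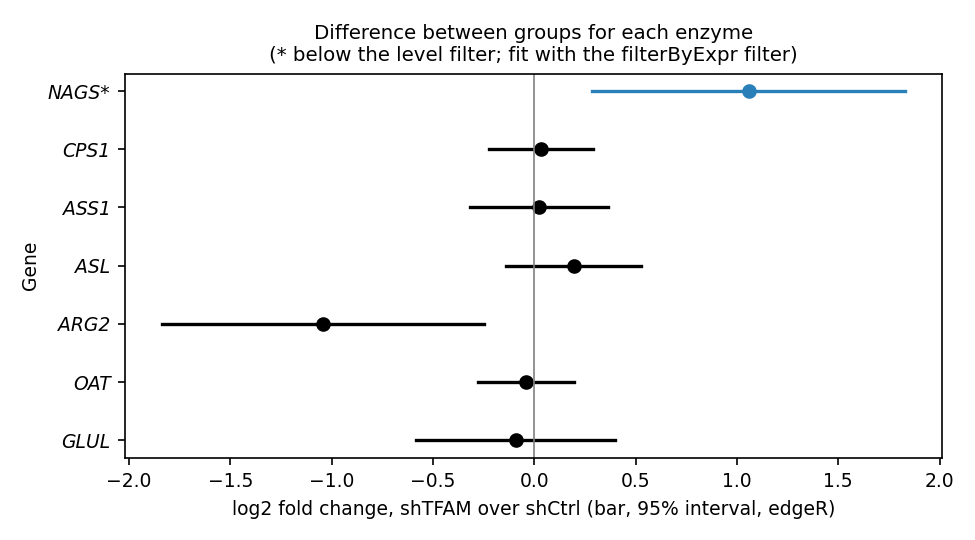
Log2 fold change of shTFAM over shCtrl with its 95% interval from edgeR, for the 6 tested enzymes (black) and for NAGS (blue) from a fit with a lower level filter. ARG2 at -1.04 and NAGS at 1.06 lie farthest from 0, and the intervals of CPS1, ASS1, ASL, OAT and GLUL include 0.

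In the mitochondrial entry to the cycle, CPS1 (ENSG00000021826, chromosome 2, 210477682 to 210679107, plus strand, hg38) was the second most abundant enzyme. It had 121, 107 and 109 FPKM in shTFAM and 120.0, 124 and 104 FPKM in shCtrl. It ranked between 219 and 282 of all rows in each library, and the 2 groups overlapped. On the CPM scale it averaged 1512 ± 84.9 in shTFAM and 1477 ± 141 in shCtrl (SD, n = 3 each), a log2 fold change of 0.03 (SE 0.109, edgeR adjusted p 0.856) with a 95% interval from -0.22 to 0.29. Its sign changed between scalings and with libraries left out, so no direction is given.

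NAGS (ENSG00000161653, chromosome 17, 44004622 to 44009068, plus strand), which supplies the activator of CPS1, was low throughout. Its counts were 59, 62 and 58 in shTFAM and 28, 30 and 27 in shCtrl, equal to 0.384, 0.407 and 0.281 FPKM against 0.195, 0.181 and 0.172 FPKM. Every shTFAM library was above every shCtrl library, which is also the case for 22.1% of tested rows. Those rows all passed the level filter, which NAGS did not, so the share is not one for rows at its level. It averaged 1.22 ± 0.195 CPM in shTFAM and 0.588 ± 0.0421 CPM in shCtrl (SD, n = 3 each). By a two-sided exact permutation test p was 0.1, the smallest that 3 against 3 can give. In fits that kept it, edgeR gave a log2 fold change of 1.06 (SE 0.330, 95% interval 0.29 to 1.83, edgeR adjusted p 0.0730) with edgeR's own filter and 1.05 (edgeR adjusted p 0.131) without a filter, and it did not pass. DESeq2 on the rows of edgeR's filter, added after the values were seen, gave an adjusted p of 0.0652. These fits called 14.4%, 6.9% and 21.9% of their rows. CPS1 stood at 316, 262 and 386 times the FPKM of NAGS in shTFAM, against 615, 683 and 605 times in shCtrl (exact permutation test, two-sided, p 0.1, the least this design allows).

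OTC (ENSG00000036473, chromosome X, 38352586 to 38421446, plus strand), the citrulline-forming step, had a count of 0 in all 6 libraries, which allows up to 0.0519 to 0.0670 CPM per shTFAM library and 0.0585 to 0.0677 CPM per shCtrl library (3 counts, for counting error alone). SLC25A15, the carrier that brings ornithine into mitochondria and citrulline out, was expressed, at 3.53 ± 0.561 FPKM in shTFAM and 4.63 ± 0.414 FPKM in shCtrl (SD, n = 3 each). In CPM its shTFAM libraries were below all shCtrl libraries, as in 20.1% of all tested rows. It did not pass (log2 fold change -0.31, edgeR adjusted p 0.179). The mRNAs of the enzymes on either side of OTC, CPS1 and ASS1, were the most abundant of the 9.

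ASS1 (ENSG00000130707, chromosome 9, 130444961 to 130501274, plus strand), which joins citrulline and aspartate, was the most abundant of the 9 enzymes. It had 222, 181 and 177 FPKM in shTFAM and 219, 219 and 165 FPKM in shCtrl. Its rank among all rows was between 101 and 156, and the groups overlapped, the lowest library being shCtrl 3. Its log2 fold change, 0.02 with a 95% interval from -0.32 to 0.36, did not pass (edgeR adjusted p 0.935), and its sign also depended on scaling and on the libraries used. ASS1 has many processed pseudogenes with which reads can be shared. The table holds 11 of them by symbol, of which 6 had any count, and together they took 0.0925 to 0.124% of the ASS1 count in shTFAM and 0.109 to 0.166% in shCtrl. CPS1 stood at 0.583 ± 0.0344 times the FPKM of ASS1 in shTFAM and 0.581 ± 0.0431 times in shCtrl (SD, n = 3 each).

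ASL (ENSG00000126522, chromosome 7, 66075800 to 66094697, plus strand), which cleaves argininosuccinate into arginine and fumarate, was far below ASS1. It had 4.13, 3.09 and 3.72 FPKM in shTFAM and 3.59, 3.41 and 3.11 FPKM in shCtrl. The groups overlapped, and edgeR gave a log2 fold change of 0.19 (SE 0.141, 95% interval -0.14 to 0.53, adjusted p 0.367). ASS1 stood at 53.3 ± 5.58 times the FPKM of ASL in shTFAM and 59.5 ± 5.69 times in shCtrl (SD, n = 3 each), a difference with p = 0.3 in the exact permutation test, whose smallest value is 0.1. Its unprocessed copy ASLP1 had 3 to 13 counts per library.

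Of the arginases, the mitochondrial isoform carried nearly all of the mRNA. ARG1 (ENSG00000118520, chromosome 6, 131470832 to 131584332, plus strand) had counts of 4, 4 and 0 in shTFAM and 0, 9 and 0 in shCtrl. Its row overlaps MED23 on the other strand over 10367 bases, and reads of such a pair can be told apart only where strand was used in counting. ARG2 made up 98.5 ± 1.43% of the summed arginase FPKM in shTFAM and 99.4 ± 1.09% in shCtrl (SD, n = 3 each), with p = 0.7 in the exact permutation test.

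ARG2 (ENSG00000081181, chromosome 14, 67619920 to 67651708, plus strand) showed the largest difference of the 6 tested enzymes. It had 1.73, 1.07 and 0.976 FPKM in shTFAM and 3.15, 3.37 and 1.66 FPKM in shCtrl. The shTFAM libraries 2 and 3 were below every shCtrl library, and shTFAM 1 and shCtrl 3 were close to each other, so that the groups overlapped. It averaged 3.52 ± 1.05 CPM in shTFAM and 7.24 ± 2.49 CPM in shCtrl (SD, n = 3 each). The edgeR estimate was a log2 fold change of -1.04 (SE 0.338, 95% interval -1.84 to -0.25, adjusted p 0.0741). It passed without shCtrl 3 (log2 fold change -1.31, edgeR adjusted p 0.0352) and in DESeq2 (adjusted p 0.0144), and over all alternatives the adjusted p was 0.0144 to 0.197. The last 4624 bases of its row overlap VTI1B on the other strand. VTI1B had 50.1, 54.5 and 47.9 CPM in shTFAM and 61.7, 65.3 and 69.2 CPM in shCtrl (log2 fold change -0.36, edgeR adjusted p 0.0465, ended without any 1 library). Its part in the ARG2 counts was not tested. ASL stood at 2.39 to 3.82 times the FPKM of ARG2 in shTFAM and 1.01 to 1.87 times in shCtrl, with no overlap (exact permutation test, two-sided, p 0.1, the least this design allows). ASL itself overlapped between groups, and how often ratios of other gene pairs separate was not tested.

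**Figure D4:**
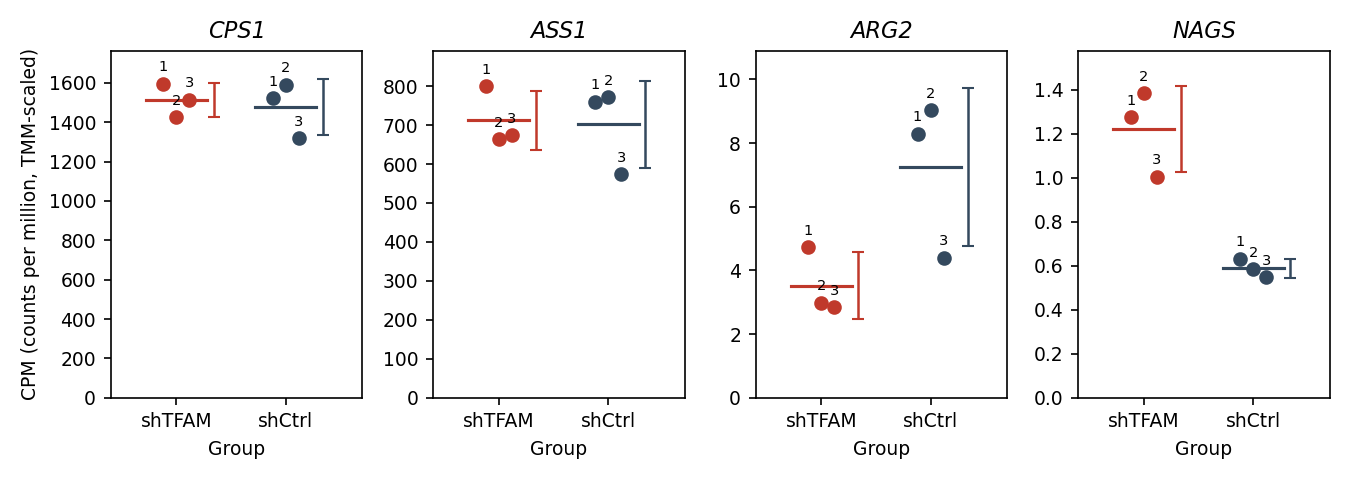
CPM of CPS1, ASS1, ARG2 and NAGS in each library (points, numbered by replicate), with the group mean (line) and SD (bar, n = 3), shTFAM left of shCtrl. CPS1 and ASS1 overlap between groups, shTFAM 1 and shCtrl 3 meet for ARG2, and for NAGS all 3 shTFAM libraries, lie above the shCtrl libraries.

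OAT (ENSG00000065154, chromosome 10, 124397303 to 124418976, minus strand) links the cycle to proline. It had 11.8 to 12.3 FPKM in shTFAM and 12.5 to 14.2 FPKM in shCtrl. The FPKM ranges lay just apart, but in CPM, with TMM factors, the groups overlapped (47.6, 49.5 and 53.0 CPM in shTFAM, 48.6, 50.3 and 55.5 CPM in shCtrl). Its log2 fold change was -0.04 (95% interval -0.28 to 0.19, edgeR adjusted p 0.807). It stood at 6.81 to 12.6 times the FPKM of ARG2 in shTFAM and 3.76 to 8.55 times in shCtrl (two-sided exact permutation p 0.2, smallest possible 0.1). GLUL (ENSG00000135821, chromosome 1, 182378098 to 182391792, minus strand) was low, at 0.871, 0.714 and 0.518 FPKM in shTFAM and 0.684, 0.875 and 0.802 FPKM in shCtrl. The groups overlapped (log2 fold change -0.09, SE 0.209, edgeR adjusted p 0.792; 95% interval -0.58 to 0.40). Its 4 processed pseudogenes in the table had no counts. Of 10 other perivenous hepatocyte markers, CYP1A2 and RHBG were at 0, and CYP2E1 averaged 0.152 FPKM in shTFAM and 0.274 FPKM in shCtrl. Of the 4 tested, TBX3 rose (log2 fold change 0.74, edgeR adjusted p 0.0108), where 11.3% of all tested rows rose. The other tested markers did not pass and had both signs, with log2 fold changes of 0.79 for NOTUM, -0.44 for ZNRF3 and -0.39 for RNF43.

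In order of level per length, ASS1 came first, then CPS1, OAT, ASL, ARG2, GLUL, NAGS, ARG1 and OTC. That order of group means held in both groups. Among neighbours in that order, the libraries of ARG1 and OTC overlapped in both groups, and those of ASL and ARG2 overlapped in shCtrl (3.37 ± 0.240 and 2.73 ± 0.928 FPKM; SD, n = 3 each). The other neighbours did not overlap within a group. By the smallest root mean square distance between centred log2 CPM profiles over the 6 libraries, among 6594 rows of at least 5 FPKM, the genes most like CPS1 were SLC7A1 (0.0227), CC2D1A (0.0260) and GTF2IRD1 (0.0295). Those most like ASS1 were CSGALNACT2 (0.0243), YIPF3 (0.0404) and FOXK2 (0.0540). SLC7A1 is the main cationic amino acid importer of dividing cells, through which arginine and ornithine enter. Any gene has nearest rows, and a link between CPS1 or ASS1 and the genes named here was not tested.

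The carriers of the cycle and of arginine were largely expressed, and none was called. Of 10, 8 were tested and 0 passed (1 at an unadjusted p under 0.05, 0 in DESeq2, 0 in limma), with a median log2 fold change of -0.12. Of all tested rows 17.9% passed (34.8% at an unadjusted p under 0.05, 26.8% in DESeq2, 17.8% in limma). SLC7A1 had 192, 169.7 and 175 CPM in shTFAM and 184, 189 and 154 CPM in shCtrl (log2 fold change 0.02, edgeR adjusted p 0.900). SLC3A2, the heavy chain of several amino acid exchangers, had 669, 594 and 651 CPM in shTFAM and 559, 577 and 384 CPM in shCtrl, without overlap (0.33, edgeR adjusted p 0.194). Such a rise without overlap was seen in 22.1% of all tested rows. SLC25A2, the second ornithine carrier, was at 0 in every library.

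Ornithine is also the precursor of polyamines. Of 19 genes of ornithine, polyamines, nitric oxide and creatine, 13 were tested, 2 rose and 3 fell, with a median log2 fold change of -0.17, where 11.3% of all tested rows rose and 6.59% fell. The regulators of polyamine synthesis OAZ1, OAZ2 and AZIN1 and the oxidase SMOX did not pass (log2 fold changes 0.21, -0.11, -0.17 and 0.28). ODC1, which decarboxylates ornithine to putrescine and is rate-limiting, had 125, 119 and 98.3 CPM in shTFAM and 208, 219 and 318 CPM in shCtrl. All shTFAM libraries were below all shCtrl libraries, as in 20.1% of all tested rows (log2 fold change -1.12, SE 0.185, edgeR adjusted p 0.00986). Spermidine synthase SRM had 82.6, 70.9 and 70.1 CPM in shTFAM and 127, 127 and 150.3 CPM in shCtrl (-0.85, SE 0.116, edgeR adjusted p 0.00538). SAT1, which acetylates polyamines for breakdown and export, went the other way, with 309, 225 and 350.3 CPM in shTFAM and 127, 121 and 84.8 CPM in shCtrl (1.41, SE 0.212, edgeR adjusted p 0.00734). DDAH1, which clears methylated arginines that inhibit nitric oxide synthases, fell to 9.64 ± 1.75 CPM in shTFAM, against 21.7 ± 1.07 CPM in shCtrl (SD, n = 3 each; -1.17, edgeR adjusted p 0.00687). These 4 calls held in every alternative in which the gene was tested. Spermine synthase SMS, named after its values were seen, rose (0.61, edgeR adjusted p 0.0420), a call that ended without any 1 library (edgeR adjusted p up to 0.121), under scaling to library totals (0.0542) or to counts outside mtDNA (0.0534), on log2(FPKM + 1) (limma adjusted p 0.0581) and without the filter (0.0637). Nitric oxide synthases NOS1 and NOS2 were at 0, and NOS3 averaged 0.151 FPKM in shTFAM and 0.0873 FPKM in shCtrl.

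Pyrimidine synthesis uses carbamoyl phosphate made in the cytosol by CAD, an enzyme other than CPS1. Any supply from CPS1 was not measured. Of the 5 measured genes of pyrimidine synthesis 4 fell (median log2 fold change -0.49), where 6.59% of all tested rows did. CAD had 247, 234 and 204 CPM in shTFAM and 311, 303 and 347 CPM in shCtrl (-0.49, SE 0.107, edgeR adjusted p 0.0241). UMPS, which forms UMP, had 55.1, 49.2 and 47.7 CPM in shTFAM and 74.5, 69.3 and 98.4 CPM in shCtrl (-0.67, SE 0.151, edgeR adjusted p 0.0262). CTP synthase CTPS1 had 117, 90.6 and 93.4 CPM in shTFAM and 144, 175 and 155 CPM in shCtrl (-0.66, SE 0.134, edgeR adjusted p 0.0198). DHODH, the mitochondrial dihydroorotate dehydrogenase, which passes electrons to the respiratory chain, had 16.0, 16.7 and 16.2 CPM in shTFAM and 20.5, 22.1 and 24.2 CPM in shCtrl (-0.45, SE 0.122, edgeR adjusted p 0.0444). In each of the 4, every shTFAM library was below every shCtrl library, which is also the case for 20.1% of all tested rows. The fifth, CTPS2, had 24.5 ± 2.22 CPM in shTFAM and 19.5 ± 1.06 CPM in shCtrl (SD, n = 3 each; 0.32, edgeR adjusted p 0.109). The count of fallen genes was 1 without shCtrl 1 or shCtrl 2, 0 without shTFAM 2 or shTFAM 3, 3 without shCtrl 3 or shTFAM 1, and 2 after leaving out shCtrl 3 together with shTFAM 3. Over these 7 fits the edgeR adjusted p reached 0.0654 for CAD, 0.0810 for UMPS, 0.0794 for CTPS1 and 0.113 for DHODH, all with negative log2 fold changes. The DHODH call also ended with quantile normalization (limma adjusted p 0.0671), no filter (0.0836), edgeR's own filter (0.0565) or no abundance trend (0.0514).

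**Figure D5:**
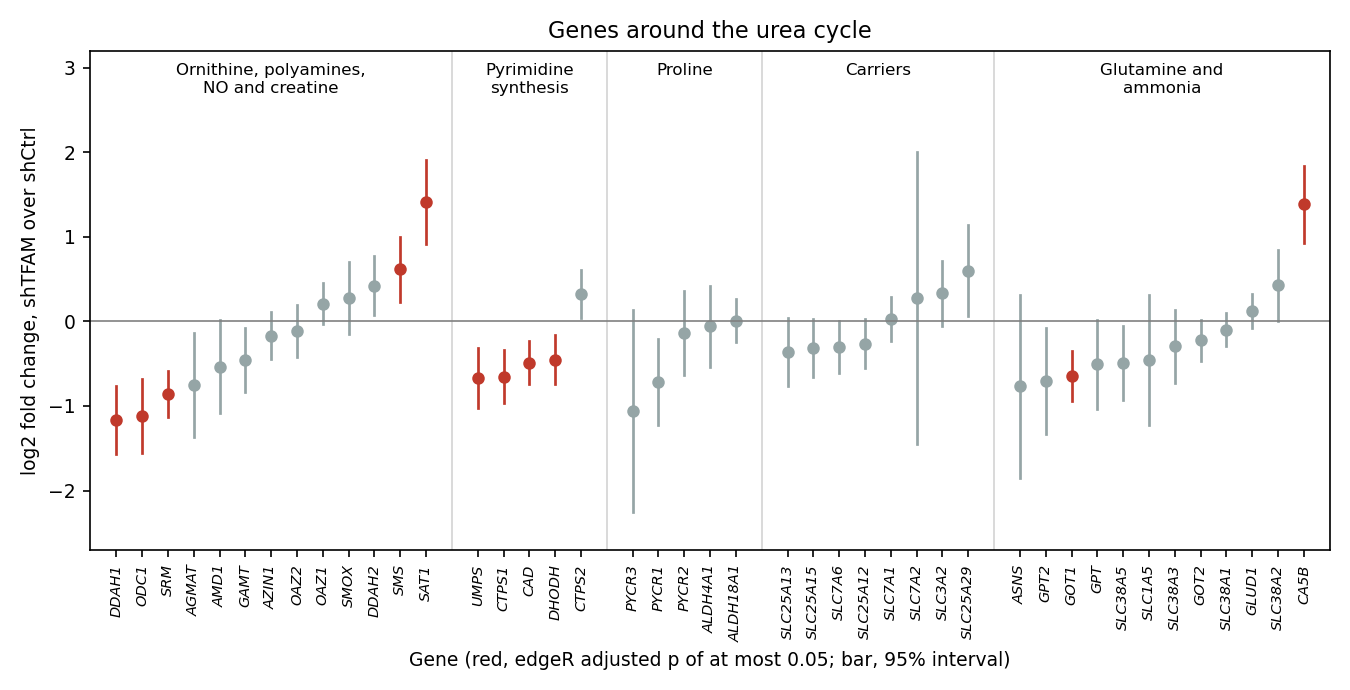
Log2 fold change of shTFAM over shCtrl with its 95% interval (edgeR) for tested genes of 5 lists around the urea cycle; red marks an adjusted p of at most 0.05. In the pyrimidine list 4 of 5 genes are red and below 0, and in the list of ornithine and polyamine genes ODC1, SRM and DDAH1 are red below 0 and SAT1 and SMS red above it.

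The proline branch that OAT feeds was not called. Of 7 genes 5 were tested and 0 passed (1 at an unadjusted p under 0.05, 1 in DESeq2, 0 in limma), with a median log2 fold change of -0.14. The shares over all tested rows were 17.9% (34.8% at an unadjusted p under 0.05, 26.8% in DESeq2, 17.8% in limma). ALDH18A1, which makes glutamate semialdehyde from glutamate, had 140.2, 145 and 156 CPM in shTFAM and 132, 143 and 164 CPM in shCtrl (log2 fold change 0.01, edgeR adjusted p 0.978). PYCR1, the mitochondrial proline-forming reductase, had 49.9, 47.7 and 54.5 CPM in shTFAM and 114, 72.9 and 63.6 CPM in shCtrl, without overlap but with 1 high shCtrl library (-0.72, edgeR adjusted p 0.0596). Of all tested rows, 20.1% were likewise lower in shTFAM without overlap. PYCR1 passed in DESeq2 (adjusted p 0.00921), without shCtrl 3 (edgeR adjusted p 0.0361), with rows of at least 5 FPKM (0.0491), and under scaling to library totals (0.0445) or to counts outside mtDNA (0.0372).

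Among genes of glutamine, glutamate and ammonia, 13 of 17 were tested, 1 rose and 1 fell (median log2 fold change -0.30). That is near the share of all tested rows called, 17.9%. GOT1, the cytosolic aminotransferase that makes aspartate, a substrate of ASS1, had 99.5, 95.6 and 88.0 CPM in shTFAM and 156, 164 and 124 CPM in shCtrl (-0.65, SE 0.127, edgeR adjusted p 0.0170). The edgeR adjusted p passed 0.05 on leaving out shCtrl 1 (0.0567), shCtrl 2 (0.0604), shTFAM 2 (0.0522) or shTFAM 3 (0.0558). CA5B, a mitochondrial carbonic anhydrase that can supply the bicarbonate CPS1 uses, was low. It rose, with 10.1, 12.1 and 10.3 CPM in shTFAM and 4.56, 4.56 and 3.35 CPM in shCtrl (1.38, SE 0.194, edgeR adjusted p 0.00612). Its mean passed the filter of 0.5 FPKM only through shTFAM (1.03 FPKM, against 0.414 FPKM in shCtrl). CA5A of the same list lay below the filter and was not tested. It averaged 0.180 FPKM in shTFAM and 0.271 FPKM in shCtrl.

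Of 17 regulators of urea cycle genes, 12 were tested, 1 rose and 1 fell (median log2 fold change 0.04), again near the 17.9% of all tested rows. CEBPA, a liver-enriched factor needed for the cycle in mice, had 14.4, 13.7 and 13.0 CPM in shTFAM and 26.5, 23.1 and 32.6 CPM in shCtrl (-1.002, SE 0.158, edgeR adjusted p 0.00867). CEBPB, its relative induced in stress and the acute phase, had 114, 107 and 139.6 CPM in shTFAM and 69.1, 65.8 and 39.8 CPM in shCtrl (1.05, SE 0.220, edgeR adjusted p 0.0214; 0.0674 without shTFAM 3). HNF4A, a hepatocyte factor that drives several of the 9 enzymes, averaged only 0.203 FPKM in shTFAM and 0.186 FPKM in shCtrl and was not tested. FOXA2 was at 0 in all 6 libraries, and the glucocorticoid receptor NR3C1 averaged 42.9 FPKM in shTFAM and 30.7 FPKM in shCtrl (0.57, edgeR adjusted p 0.268).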

How the data were processed

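Poly(A)-selected, dUTP-marked libraries were sequenced as paired reads, per the labels' protocols. Tools named without a role in the submitters' processing notes are StringTie 1.3.4d, HISAT2 2.0.4, cutadapt 1.9 and Bowtie 0.12.2, and the named builds are hg38 and mm8, of which the row coordinates follow hg38. The counting step and its use of strand: not given in the sources used here. Values are raw counts and FPKM per gene as deposited, per the file headers; counts over FPKM differed by 1 factor per library (SD at most 0.00173 log2 units over rows above 200 counts), and a count of 0 is written as an FPKM of at most 1e-04.

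Groups came from the treatment label. Rows averaging 0.5 FPKM or more over the libraries (14708 rows, 99.4 to 99.5% of counts) had their counts tested with edgeR 4.0.16 (R 4.3.3; quasi-likelihood, TMM factors 0.951 to 1.04, Benjamini-Hochberg over all tested rows, tested on simulated counts). SE is the log2 fold change over the root of F. DESeq2 1.42.0 and limma 3.58.1 (log2 with a pseudocount of 1 or 0.1) were alternatives. No replicate pair agreed within sampling noise (lowest chi-square per degree of freedom 34.2). Members and lists were chosen with earlier results of these data known. Named are all members, TFAM, up to 4 called genes per list by smallest p, or the 2 most abundant where none was called, and the 3 nearest profiles of the 2 most abundant members; other genes were named after their values were seen. Promoters are from RefSeq (GRCh38.p14), with motifs searched on both strands. Figures used matplotlib 3.10.9. A list gene is not reported here.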

Additional observations from a re-analysis of the deposited data

How the results depend on the processing

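No paired analysis was possible because the labels give the groups no shared replicate numbers. The count of called rows was 1148 to 2065 over single left-out libraries, against 2630 with all 6, and 3850 in DESeq2. The number of called enzymes was 1 in DESeq2 and 0 to 1 over left-out libraries, ARG2 in both cases (log2 fold change -1.05 in DESeq2, and -1.32 to -0.85 over left-out libraries). At a limit of 5 FPKM, 3 enzymes were expressed in shTFAM and 3 in shCtrl. The ARG2 share of arginase FPKM, shTFAM minus shCtrl, was -1.66 to -0.250 percentage points over left-out libraries. ASL kept its sign and its side of the threshold in all 17 alternatives, and NAGS in the 3 fits that held it.

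Signs of uncalled values near 0 changed, and none of these values passed; the cause was not tested. CPS1, ASS1, SLC7A1 and ALDH18A1 had log2 fold changes of -0.039, -0.049, -0.048 and -0.071 with library totals, and -0.098, -0.11, -0.11 and -0.13 with totals outside mtDNA. On log2(FPKM + 1) they were -0.045, -0.052, -0.051 and -0.070, and on log2(FPKM + 0.1) -0.045, -0.052, -0.053 and -0.072. With rows of at least 5 FPKM they were -0.00050, -0.014, -0.0099 and -0.025. Quantile normalization gave -0.0014 for ASS1, -0.043 for SLC7A1 and -0.093 for ALDH18A1, and DESeq2 gave -0.0014 for ALDH18A1. With shCtrl 3 and shTFAM 3 left out, CPS1 had -0.042, ASS1 -0.066, SLC7A1 -0.045 and GLUL 0.078. Over single left-out libraries the values ran from -0.049 to 0.090 for CPS1, -0.11 to 0.095 for ASS1, -0.093 to 0.0073 for OAT, -0.27 to 0.068 for GLUL, -0.069 to 0.081 for SLC7A1 and -0.077 to 0.087 for ALDH18A1. Scaling to totals outside mtDNA moved the median of all rows to -0.15, from -0.015 with TMM factors. It gave 1198 rows higher and 1771 lower, and library totals 1353 and 1266, where TMM factors gave 1661 and 969. Depth limits what can be said of OTC, ARG1 and NAGS, which had at most 62 counts per library.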

Other observations

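A noncoding transcript annotated inside CPS1 on the same strand, CPS1-IT1 (chromosome 2, 210617571 to 210619876, plus strand, hg38), had 0.627, 0.558 and 0.814 CPM in shTFAM and 0.879, 1.44 and 1.44 CPM in shCtrl. All shTFAM libraries were below all shCtrl libraries, as in 20.1% of all tested rows, while CPS1 itself overlapped between groups. The transcript lay below the level filter and was not tested, so that share is not one for rows at its level. On the same strand its reads cannot be told apart from CPS1 pre-mRNA in that interval.

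Beside the counts that follow, 11.3% of all tested rows rose. Of 7 cholangiocyte markers 3 were tested, and MUC1 rose (log2 fold change 1.43, edgeR adjusted p 0.0153; 0.0527 without shCtrl 1 and 0.0540 without shCtrl 2). Of 8 fibroblast and stellate cell markers 6 were tested and 2 rose, PDGFRB (1.69, edgeR adjusted p 0.000721) and DCN (2.95, edgeR adjusted p 0.00276). DCN passed the filter of 0.5 FPKM only through shTFAM (1.48 FPKM, against 0.201 FPKM in shCtrl). The other 4 tested markers did not pass, with log2 fold changes of 1.17 for LUM, 0.39 for DES, 0.09 for COL1A1 and -0.68 for ACTA2. COL1A2 had 0 counts in every library. COL3A1 lay below the filter and was not tested, with averages of 0.581 FPKM in shTFAM and 0.0385 FPKM in shCtrl. The lysosomal protein CD68, fixed here as a blood cell marker, rose (1.43, edgeR adjusted p 0.00892), as did H19, the 1 fetal liver marker tested (2.75, edgeR adjusted p 0.00154). The endothelial markers CDH5 and PECAM1 averaged 0.435 and 0.0884 FPKM in shTFAM, against 0.398 and 0.0580 FPKM in shCtrl.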
